A study of Mus musculus with 4 samples.

Results

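Serpins and tissue inhibitors of metalloproteinases (TIMPs) were followed across 4 populations of cultured mouse CD4 T cells, as a set of 8 genes: the intracellular serpins Serpinb1a, Serpinb6a, Serpinb6b and Serpinb9, the secreted serpin Serpinf1, the cathepsin inhibitor Serpina3g, and the secreted inhibitors Timp1 and Timp2. The members were taken as every probe set that carries one of these symbols alone, which gave 15 of the 45101 probe sets on the array and 7 of the 18193 genes. Serpina3g had no such probe set and was not analysed here. The set was selected on its signals on these same 4 arrays, so the levels and ratios of the members are a description. At least 1 array exceeded the floor of 12.1 for 14 of the 15 probe sets. The floor is the median signal of all probe sets other than controls, and signals below it are not ordered here.

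A serpin is a protease inhibitor that acts as a bait: the target protease cuts its reactive loop, the serpin changes shape, and the protease is trapped and inactivated. Clade B serpins stay inside the cell, where they guard leukocytes against proteases that leak from their own granules and lysosomes. TIMPs are small secreted proteins that bind the active site of matrix metalloproteinases and of some ADAM proteases, and so limit the breakdown of the extracellular matrix and the shedding of membrane proteins.

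The cells came from spleen and lymph nodes of C57BL/6 mice aged 8 to 10 weeks, and each population was hybridised to 1 Affymetrix array. Th0 and Th17 cells both started from naive CD4 T cells, kept either in Th0 or in Th17 conditions. The exFoxp3Th17 and Treg cells both started from CD4 T cells that carried Foxp3, the regulatory T cell factor, and were kept in Th17 conditions or with IL-2. Every population was sorted after culture by an IL-17 reporter read as GFP and by Foxp3 read in the APC channel: Th0 lacked both, Th17 and exFoxp3Th17 had IL-17 without Foxp3, and Treg had Foxp3 without IL-17. The labels used here do not say how many mice went into each culture, and with 1 array per population no spread between cultures and no test can be given. A gene is called higher or lower below when the signals of 2 arrays were at least 2-fold apart and the larger one exceeded the floor.

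Foxp3 itself read 584.9 on the Treg array and 4.3 to 8.0 on the others. Il17a, the other sort marker, was below the floor on all 4 arrays (9.8 in Th17, 9.4 in exFoxp3Th17, 8.2 in Treg and 7.1 in Th0), so its signal did not separate the IL-17 gates. The 6 measured CD4 T cell markers were above the floor on all 4 arrays. Of 7 stromal cell markers, a cell type in which Serpinf1, Timp1 and Timp2 are also made, 1 (Col1a2, 12.4 in Th17) reached the floor on any array, and their summed signal was 34.1 in Th17, 34.7 in Treg, 28.5 in Th0 and 18.4 in exFoxp3Th17. Of 7 myeloid markers 1 or 2 were above the floor (summed signal 37.9 to 82.4), of 3 B cell markers 0 or 1 (15.8 to 59.9) and of 3 NK cell markers 0 or 1 (3.4 to 30.0). Of 2 CD8 T cell markers 1 or 2 were above it (66.0 to 97.0), of 3 dendritic cell markers 0 or 1 (14.5 to 28.8) and of 3 endothelial cell markers 1 or 2 (66.5 to 204.7). The exFoxp3Th17 array also stood apart in sex-linked RNA: Xist was at 3766 there and below the floor on the 3 other arrays (7.4 to 10.8). The Y-linked genes Eif2s3y (4.7 against 654.5 to 875.8), Kdm5d (2.9 against 133.0 to 219.7) and Uty (0.7 against 107.3 to 161.7) were below the floor on that array alone. The labels used here give no sex, and in both comparisons with exFoxp3Th17 this difference and the population cannot be told apart. The 3' over 5' signal of control transcripts, which rises as RNA degrades, was 0.91 to 1.06 (Gapdh) and 1.12 to 1.31 (Actb).

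All 7 measured members differed by 2-fold or more between some pair of arrays, as 35.4% of the 11769 genes above the floor did. They fell into patterns by the array on which they were highest. Serpinb1a, Serpinf1 and Timp1 were highest in Th17, and Serpinb6a and Timp2 in exFoxp3Th17. Serpinb6b was highest in Th0 and Serpinb9 in Treg, both over a narrow range. In Th17, 3 members were 2-fold or more above each other array, against 1.38% of all genes, and in exFoxp3Th17 1 member was, against 3.4%. In Th0, 2 members (Serpinb1a and Serpinb6a) were 2-fold or more below each other array, against 1.86%. The members were chosen with these values known, so these shares describe the set and support nothing.

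**Figure D1:**
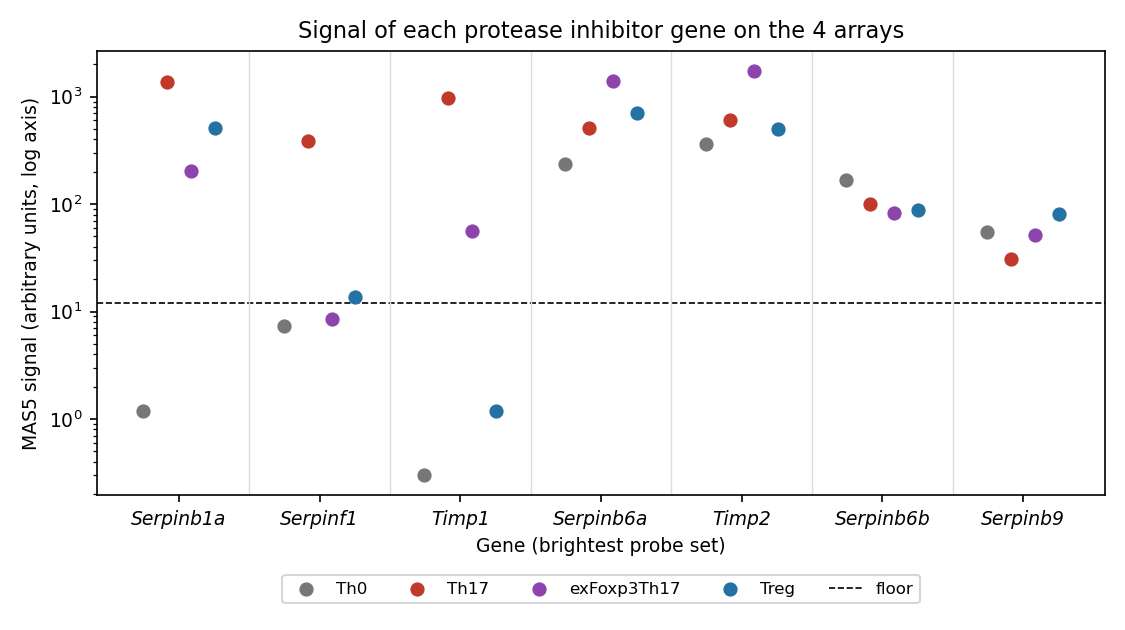
MAS5 signal (log axis, arbitrary units) of the brightest probe set of each of the 7 measured genes, with 1 point per array and the floor of 12.1 as a dashed line. Serpinb1a, Serpinf1 and Timp1 peak on the Th17 array, at 1354, 387.9 and 971.8, while Serpinb6a and Timp2 peak on the exFoxp3Th17 array, at 1386 and 1733.

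Upstream sequences are shown for the 4 members whose promoter is in the RefSeq table and whose signals peaked in pairs on the same array: Timp1 and Serpinf1, the Th17-high pair, and Timp2 and Serpinb6a, the exFoxp3Th17-high pair. Each is the 250 bases before the annotated start, read 5' to 3' in the direction of transcription on build GRCm38.p6. Timp1 lies at chrX:20869916-20870165 on the plus strand, Serpinf1 at chr11:75422624-75422873, Timp2 at chr11:118355412-118355661 and Serpinb6a at chr13:34002795-34003044, all 3 on the minus strand. Serpinb6a has 2 starts in the table, and the outer one is shown. Capitals mark every match, on either strand, to 5 motifs: the TATA box (TATAAA), the GC box bound by Sp1 (GGGCGG), AP-1 (TGANTCA), STAT (TTCNNNGAA) and the core bound by the aryl hydrocarbon receptor (GCGTG).
Timp1: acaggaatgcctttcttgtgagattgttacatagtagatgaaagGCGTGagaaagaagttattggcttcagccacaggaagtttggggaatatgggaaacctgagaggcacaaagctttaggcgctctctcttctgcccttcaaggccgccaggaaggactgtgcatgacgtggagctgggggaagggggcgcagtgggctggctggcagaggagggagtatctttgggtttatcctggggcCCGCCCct
Serpinf1: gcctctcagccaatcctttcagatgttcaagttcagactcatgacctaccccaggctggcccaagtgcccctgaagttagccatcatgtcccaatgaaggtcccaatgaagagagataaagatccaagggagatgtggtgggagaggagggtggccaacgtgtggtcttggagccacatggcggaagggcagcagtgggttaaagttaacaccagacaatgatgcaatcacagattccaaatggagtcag
Timp2: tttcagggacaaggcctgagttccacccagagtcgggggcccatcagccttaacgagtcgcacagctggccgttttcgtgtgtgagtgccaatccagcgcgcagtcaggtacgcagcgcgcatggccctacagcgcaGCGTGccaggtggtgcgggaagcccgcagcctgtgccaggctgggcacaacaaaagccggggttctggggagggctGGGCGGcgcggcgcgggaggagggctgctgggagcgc
Serpinb6a: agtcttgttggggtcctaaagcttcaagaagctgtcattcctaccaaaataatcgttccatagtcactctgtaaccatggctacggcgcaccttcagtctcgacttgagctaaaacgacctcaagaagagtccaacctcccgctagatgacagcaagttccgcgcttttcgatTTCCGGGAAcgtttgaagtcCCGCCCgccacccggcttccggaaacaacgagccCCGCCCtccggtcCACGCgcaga
No motif matched in Serpinf1. Timp1 and Timp2 each held 1 GC box and 1 GCGTG, and Serpinb6a held 2 GC boxes, 1 GCGTG and 1 STAT match. Among all 32851 upstream windows of the same length, 32.7% held the GC box, 28.2% GCGTG and 7.02% the STAT motif, with 12.4% for the TATA box and 6.75% for AP-1. Timp2 was the richest in G and C (68.0%, 21 CpG pairs) and Serpinf1 the poorest (51.6%, 2 CpG pairs), with medians of 52.4% and 6 over all windows. Timp1 stood at 54.4% with 6 CpG pairs, and Serpinb6a at 54.4% with 20. The Th17-high pair thus shared no match, since Serpinf1 held none. The pair that was high in exFoxp3Th17 shared the GC box and GCGTG, both of which Timp1 also held. Serpinb1a, also highest in Th17, has no promoter in the RefSeq table and is missing from this contrast. These matches are letters in a window and were not tested as binding sites.

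Serpinb1a encodes an inhibitor of the neutrophil serine proteases elastase, cathepsin G and proteinase 3. Its signal was 1354 in Th17, 204.0 in exFoxp3Th17, 515.4 in Treg and 1.2 in Th0. Only Th0 lay below the floor, and every neighbouring pair in the order Th17, Treg, exFoxp3Th17, Th0 was 2-fold or more apart. Th17 was at least 112-fold above Th0, and Treg at least 42.6-fold above Th0. The exFoxp3Th17 array was 6.64-fold below Th17 and 2.53-fold below Treg. In sorted populations measured in bulk, as here, fewer cells that make a transcript and less of it per cell cannot be told apart. A second probe set, of the kind that can detect more than 1 gene, gave 179.6, 25.3, 59.2 and 4.4 for the same arrays. Their ranking was unchanged, with exFoxp3Th17 7.09-fold below Th17 and 2.34-fold below Treg.

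Serpinf1 encodes pigment epithelium-derived factor, a secreted serpin that does not inhibit proteases and is known for blocking the growth of blood vessels. It had a signal of 387.9 in Th17, 8.5 in exFoxp3Th17, 13.8 in Treg and 7.3 in Th0. It was thus detected well above the floor in Th17 alone among the 4 arrays, at least 32.1-fold above both Th0 and exFoxp3Th17 and 28.1-fold above Treg. Its second probe set was dimmer and had the same shape, at 33.0 in Th17 and from 1.3 to 2.5 on the others, which set a bound of at least 2.72-fold over Th0.

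Timp1 encodes a broad inhibitor of matrix metalloproteinases that also acts as a growth factor. Its signal was 971.8 in Th17, 56.1 in exFoxp3Th17, 1.2 in Treg and 0.3 in Th0. Both arrays of Th17 conditions were above the floor and both others below it, but the exFoxp3Th17 level was 17.3-fold below Th17. Th17 was at least 80.3-fold above Th0, and exFoxp3Th17 at least 4.64-fold above Treg. The gene has a single probe set here. It lies on the X chromosome, and Xist was detected on the exFoxp3Th17 array only; any part of that difference in the lower Timp1 signal was not tested.

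Timp2 encodes a metalloproteinase inhibitor that also helps membrane-bound MMP14 to activate the MMP2 precursor. Its brightest probe set read 607.5 in Th17, 1733 in exFoxp3Th17, 503.2 in Treg and 359.3 in Th0. The exFoxp3Th17 array was 2.85-fold above Th17 and 3.44-fold above Treg, while the 3 other arrays were each less than 2-fold apart. Of its 5 other probe sets, 4 were above the floor on any array, and all 4 were highest in exFoxp3Th17. For exFoxp3Th17 over Th17, 3 of these gave larger ratios than the brightest one: 6.26-fold (531.8 against 84.9), 6.24-fold (508.3 against 81.5) and at least 5.99-fold (72.5 against 7.2). The other was at 17.5 against 7.8, a bound of at least 1.44-fold. In Th17 over Th0 the brightest probe set had a log2 ratio of 0.76 and the 3 others above the floor of -0.42 to -0.05, so the probe sets did not go the same way there and none reached 2-fold. Of the endothelial markers, Pecam1, which T cells also make, was highest on the same array as Timp2 (191.9, against 46.9 to 94.9), while Cdh5 (4.5) and Kdr (8.2) were below the floor there; its part in the Timp2 difference was not tested.

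**Figure D2:**
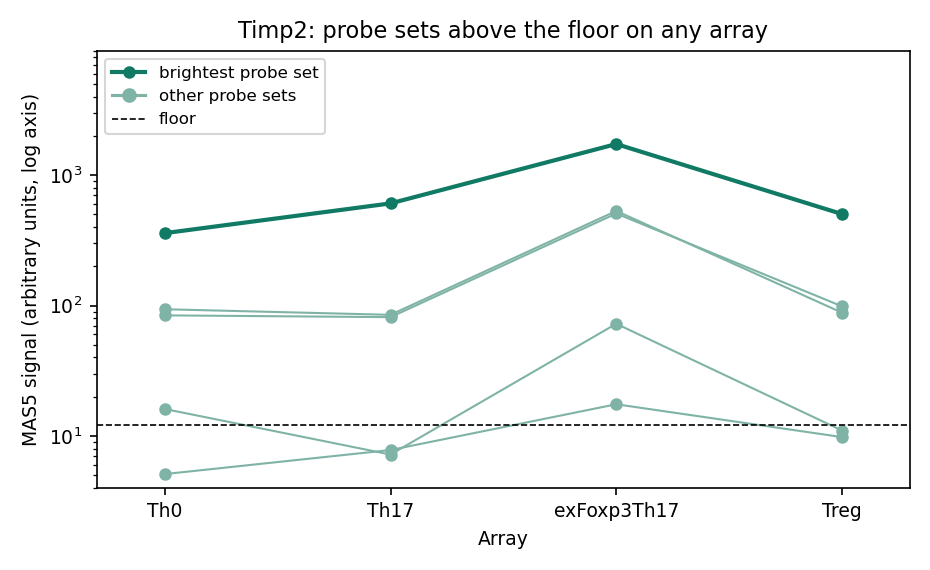
MAS5 signal (log axis, arbitrary units) of the 5 Timp2 probe sets above the floor of 12.1 (dashed) on any array, where each line joins the values of 1 probe set and the brightest is drawn thick. All 5 are highest in exFoxp3Th17, at 1733 for the brightest and 17.5 to 531.8 for the others.

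Serpinb6a encodes an intracellular inhibitor of cathepsin G and related serine proteases. Its signal was 508.1 in Th17, 1386 in exFoxp3Th17, 708.1 in Treg and 237.7 in Th0, all above the floor. Th0 was the lowest, 2.14-fold below Th17. The exFoxp3Th17 array was 2.73-fold above Th17, and 1.96-fold above Treg, just short of the 2-fold threshold; Th17 and Treg were 1.39-fold apart. It has 1 probe set, which detects several transcripts of the gene.

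Serpinb6b, a close relative of Serpinb6a, read 99.2 in Th17, 82.1 in exFoxp3Th17, 87.5 in Treg and 168.6 in Th0. Th0 was the highest, and the 3 others lay within 1.21-fold of each other. Its widest difference was 2.05-fold, between Th0 and exFoxp3Th17. It was not called in any of the 4 comparisons.

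Serpinb9 encodes the inhibitor of granzyme B that protects killer lymphocytes from their own granules. It had a signal of 31.0 in Th17, 51.1 in exFoxp3Th17, 80.7 in Treg and 54.9 in Th0. The highest and lowest arrays, Treg and Th17, were 2.6-fold apart, and no neighbours in the order reached 2-fold. The second probe set read 8.4, 15.3, 27.6 and 22.9 for the same arrays and ranked them alike. In none of the 4 comparisons was Serpinb9 called by either probe set.

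Between the Th17 populations of different origin, 2 of the 7 measured members were higher in exFoxp3Th17 (Timp2 and Serpinb6a), 3 were lower (Serpinf1, Timp1 and Serpinb1a) and 2 were neither. Over all genes above the floor, 7.48% were called higher and 7.27% lower. The members' median log2 ratio was -0.27, beside 0.03 for all genes. The TIMP genes went in opposite directions, Timp1 at a log2 ratio of -4.11 and Timp2 at 1.51. So did Serpinb1a (-2.73) and Serpinb6a (1.45), serpins of the same gene cluster.

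In Th17 against Th0, the naive-derived pair, 4 of 7 members were higher in Th17 (Serpinb1a, Timp1, Serpinf1 and Serpinb6a) and 0 lower, where 8.22% of all genes were called higher and 6.88% lower. The median log2 ratio was 1.10, beside -0.02 for all genes. In exFoxp3Th17 against Treg, the Foxp3-derived pair, 2 were higher (Timp1 and Timp2), 1 was lower (Serpinb1a) and 4 were neither, with 11.3% and 9.94% of all genes called and medians of -0.09 and 0.02. In Treg against Th0, 2 were higher (Serpinb1a and Serpinb6a) and 0 lower, with 5.56% and 4.95% of all genes called and medians of 0.49 and -0.01. These comparisons share arrays in part. Th17 against Th0 and exFoxp3Th17 against Treg have none in common, and neither do exFoxp3Th17 against Th17 and Treg against Th0.

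Set side by side, the naive-derived and Foxp3-derived pairs gave these values for the members that varied most. Timp1 was above the partner array in both, by at least 80.3-fold in the naive-derived pair and at least 4.64-fold in the Foxp3-derived pair. Serpinb1a was at least 112-fold higher in Th17 than in Th0 and 2.53-fold lower in exFoxp3Th17 than in Treg, and the partner arrays themselves read 1.2 and 515.4. Serpinf1 was at least 32.1-fold higher in Th17 than in Th0 and was not called in the Foxp3-derived pair (8.5 against 13.8). Serpinb6a was 2.14-fold higher in Th17 than in Th0 and 1.96-fold higher in exFoxp3Th17 than in Treg, the latter just short of a call. For Timp2 the brightest probe set was 3.44-fold higher in exFoxp3Th17 than in Treg, and 4 dimmer ones went the same way. In Th17 against Th0 the brightest was 1.69-fold higher, short of a call, while 3 dimmer ones had log2 ratios of -0.42 to -0.05. No direction is therefore given for Timp2 in the naive-derived pair. With 1 array per population none of these differences between pairs could be tested.

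**Figure D3:**
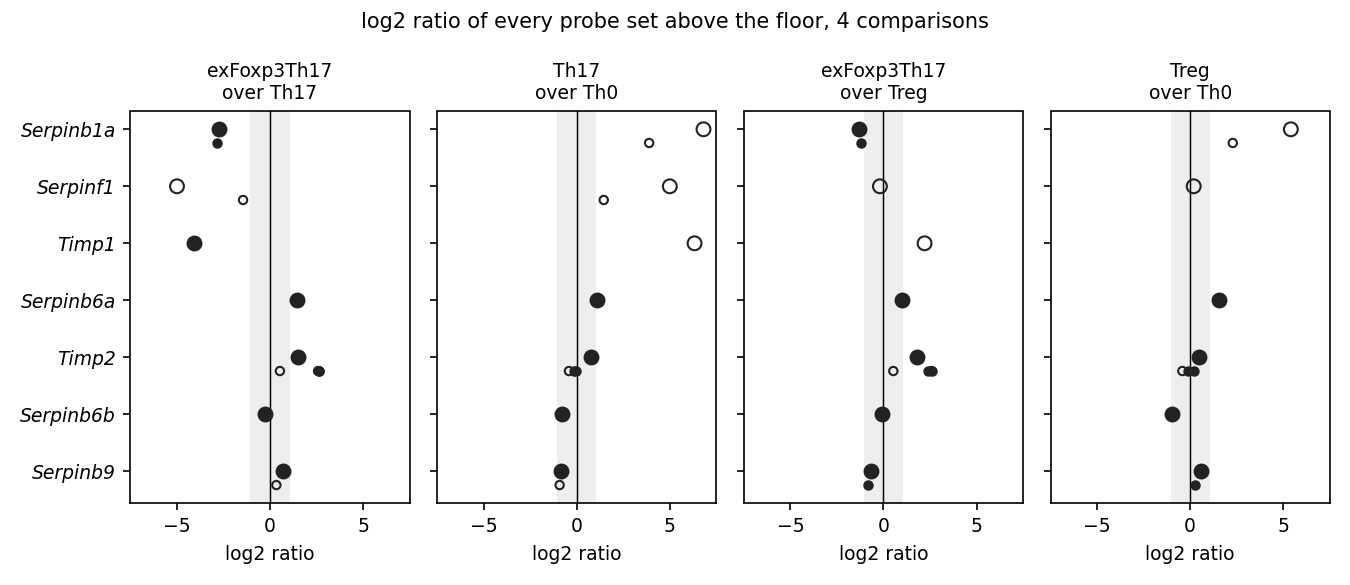
log2 ratio in the 4 comparisons for every probe set of the 7 genes with a signal above the floor; large points are the brightest probe set, small points below them the others, and open points are bounds because 1 array lay below the floor. The grey band spans less than 2-fold, and in exFoxp3Th17 over Th17 the large points of Serpinb1a, Serpinf1 and Timp1 lie left of it (-2.73, -5.00 and -4.11) and those of Timp2 and Serpinb6a right of it (1.51 and 1.45).

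As a gauge of noise within an array pair, genes with 2 probe sets above the floor on both arrays were used. The robust SD of the gap between their 2 log2 ratios was 0.42 to 0.52 over the 4 comparisons. This covers measurement only, and holds no difference between cultures, sorts or mice.

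All 4 clade B members lie in 1 gene cluster on mouse chromosome 13. From Serpinb1a to Serpinb6a the RefSeq table lists 16 protein-coding genes, all of them clade B serpins, and 11 of these have a probe set. Above the floor on any array were 6: the 4 members, Serpinb6e and Serpinb9b. Serpinb6e was flat, from 49.6 in exFoxp3Th17 to 66.5 in Treg, and its probe set is of a kind that can cross-hybridise. Serpinb9b did not exceed 12.6. Serpinb1b, the nearest relative of Serpinb1a with a probe set, was at most 3.2. Serpinb1a, with its peak in Th17, and Serpinb6a, with its peak in exFoxp3Th17, carried the large differences. The stretch was cut at these outermost members, so their place at its ends is by construction and is not a result.

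**Figure D4:**
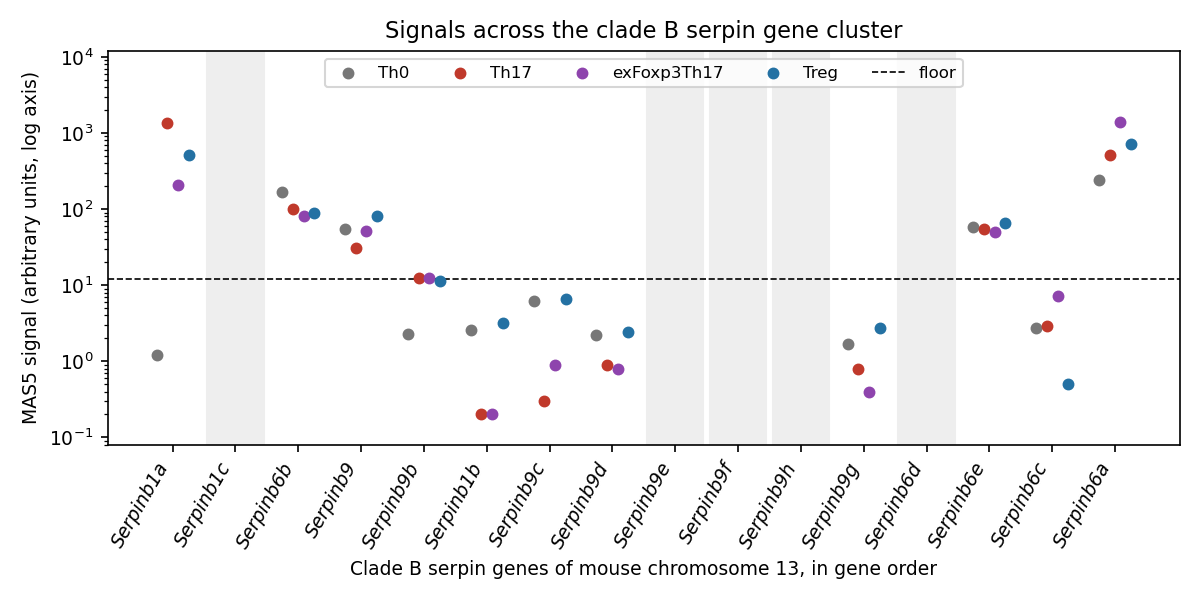
MAS5 signal (log axis, arbitrary units) for the 16 clade B serpin genes of the chromosome 13 cluster in gene order, not to scale, with 1 point per array and the floor of 12.1 dashed; grey columns are genes that have no point. Serpinb1a reaches 1354 on the Th17 array and Serpinb6a 1386 on the exFoxp3Th17 array, while the measured genes between them stay at or below 168.6.

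Beyond the members, 35 other serpin genes had a probe set and 5 were above the floor. Of these, 1 was higher in exFoxp3Th17 than in Th17 and 4 were neither, where 7.48% of all genes were called higher and 7.27% lower. The higher one was Serpini1, which encodes neuroserpin, an inhibitor of tissue plasminogen activator. It read 48.5 in Th17, 246.3 in exFoxp3Th17, 79.7 in Treg and 105.9 in Th0, so that exFoxp3Th17 was 5.08-fold above Th17 and 3.09-fold above Treg, while Th17 was 2.18-fold below Th0. Serpinc1, which encodes antithrombin, was 2.22-fold lower in exFoxp3Th17 than in Treg (14.7 against 32.7). Of the remaining metalloproteinase inhibitors, Timp3 and Timp4 were below the floor on every array. The membrane-anchored inhibitor Reck lay between 122.4 and 180.4 and was not called.

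Genes of the MMP, ADAM and ADAMTS metalloproteinases, only some of which TIMPs bind, were mixed. Of 31 with a probe set, 17 were above the floor, and in exFoxp3Th17 against Th17 4 were higher and 2 lower (median log2 ratio 0.02). The higher ones were Adam12 (at least 5.73-fold, 69.3 against 7.4), Adamts6 (4.33-fold, 272.4 against 63.0), Mmp11 (2.92-fold) and Adamts10 (2.86-fold). The lower ones, Mmp13 (17.1 against 40.1) and Mmp10 (7.6 against 30.1), were highest in Th17, the array on which Timp1 was highest. Against Th0, 4 were higher in Th17 and 1 was lower: Adam9 by 7.57-fold (560.2 against 74.0), Adam19 by 5.33-fold (765.6 against 143.8), Mmp13 by at least 3.31-fold and Mmp10 by at least 2.48-fold, with Adamts10 3.09-fold lower. Adam10 and Adam17, the main sheddases of the cell surface, were not called in any comparison, Adam10 at 1038 to 1410 and Adam17 at 257.5 to 333.7. In exFoxp3Th17 against Treg, 2 were higher (Adam12 and Mmp11) and 1 was lower (Adam8, 14.8 against 78.0). In Treg against Th0, 4 were higher, Adam9 by the most (4.63-fold), and 0 lower. Over all genes, 7.48% were called higher and 7.27% lower in exFoxp3Th17 against Th17, and 8.22% and 6.88% in Th17 against Th0. The shares were 11.3% and 9.94% in exFoxp3Th17 against Treg, and 5.56% and 4.95% in Treg against Th0. The counts of this list and of those below were not tested against these shares.

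Granule serine proteases, a list not limited to known targets of clade B serpins, were mostly below the floor. Of 13 measured, 4 exceeded it on any array, and 3 of these were higher in Treg than in both Th0 and exFoxp3Th17. Over all genes, 5.56% were higher in Treg than in Th0, and 9.94% were lower in exFoxp3Th17 than in Treg. Gzmb, which encodes granzyme B, read 11.0 in Th17, 1.1 in exFoxp3Th17, 2781 in Treg and 22.5 in Th0. Treg was thus 123-fold above Th0, and its Serpinb9 signal, for the inhibitor of granzyme B, was 1.47-fold above Th0. Gzma was at 109.0 in Treg and Gzmc at 24.4, with both below the floor on the other arrays. Of the targets of Serpinb1a, the cathepsin G gene Ctsg (at most 6.9) and the proteinase 3 gene Prtn3 (at most 5.6) were below the floor on all 4 arrays, and the elastase gene Elane reached 14.7 in Treg alone. None was detected on the Th17 array, where Serpinb1a was highest.

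Cathepsins, proteases of the lysosome, had 12 of 14 genes above the floor. In exFoxp3Th17 against Th17, 3 were higher, 0 lower and 9 neither (median log2 ratio 0.57): the legumain gene Lgmn (2.75-fold), Ctsc (2.08-fold) and Ctso (2.05-fold). In exFoxp3Th17 against Treg, 5 were higher and 0 lower, led by Ctsf (at least 5.62-fold) and Ctsl (5.16-fold, 726.4 against 140.8). Th17 exceeded Th0 for 3, Ctsw (66.5-fold, 1358 against 20.4), Ctsf (at least 4.37-fold) and Ctsl (3.34-fold), and was below it for 2. In Treg against Th0, 1 was higher (Ctsw, 24.6-fold). Over all genes, 7.48% were called higher and 7.27% lower in exFoxp3Th17 against Th17, and 11.3% and 9.94% in exFoxp3Th17 against Treg. The shares were 8.22% and 6.88% in Th17 against Th0, and 5.56% and 4.95% in Treg against Th0.

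Among 25 genes with a probe set on a list of other protease inhibitors and related genes, 19 were above the floor. A place on this list does not make each product an inhibitor, and that of Crispld2 was not tested as one. In Th17 against Th0, 7 were higher and 2 lower, where 8.22% of all genes were called higher and 6.88% lower. The largest ratio was that of Ctla2b, at 145-fold (3063 against 21.1), followed by Crispld2, at least 66.5-fold (804.3 against 0.9), and Ctla2a, at 55.1-fold (4569 against 82.9). Ctla2a and Ctla2b encode inhibitors related to the propeptides of cathepsins. Slpi, the secretory leukocyte inhibitor of elastase, was 7.24-fold lower (45.2 against 327.4), and Itih5 was 17-fold lower. In exFoxp3Th17 against Th17, 0 were higher and 1, Slpi, was lower (at least 3.74-fold, 4.7 against 45.2). In exFoxp3Th17 against Treg 4 were higher and 3 lower, and in Treg against Th0 5 were higher and 1 lower. Over all genes, 7.48% were called higher and 7.27% lower in exFoxp3Th17 against Th17. The shares were 11.3% and 9.94% in exFoxp3Th17 against Treg, and 5.56% and 4.95% in Treg against Th0.

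On a list of plasminogen system genes with some clotting and surface receptor genes, 7 of 11 measured genes were above the floor. Of its protease genes, Plg (at most 2.0) and Plau (at most 9.5) were below the floor on every array. Plat was above it in Th0 alone, at 12.5. Procr, the protein C receptor gene, followed the Th17-high pattern, with signals of 752.1 in Th17, 19.3 in exFoxp3Th17, 43.9 in Treg and 1.5 in Th0. Anxa2, whose product binds plasminogen at the cell surface, was 3.63-fold lower in exFoxp3Th17 than in Th17 (689.8 against 2505) and 3.75-fold lower than in Treg. These were the 2 lower genes of exFoxp3Th17 against Th17, with 0 higher; against Treg, 3 were lower and 0 higher. Th17 exceeded Th0 for 1, Procr, and Treg exceeded Th0 for 2, the thrombin receptor gene F2r (2.67-fold) and Procr (at least 3.63-fold), with 0 lower in either. Over all genes, 7.48% were called higher and 7.27% lower in exFoxp3Th17 against Th17, and 11.3% and 9.94% in exFoxp3Th17 against Treg. The shares were 8.22% and 6.88% in Th17 against Th0, and 5.56% and 4.95% in Treg against Th0.

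The genes most alike to each member were found by the root mean square difference of log2 signals over the 4 arrays, after centring each gene on its own mean, among 8441 genes. This likeness rests on 4 arrays only. Signals below the floor were set to it first, so the likeness for Serpinb1a, Timp1 and Serpinf1 rests partly on bounds. For Serpinb1a the nearest were the metallothioneins Mt2 (0.24; 31.9, 2990, 614.4 and 1792 in Th0, Th17, exFoxp3Th17 and Treg) and Mt1 (0.56), then Ctla2a (0.80). For Timp1 they were the cytokine gene Il9 (0.34; 9.7, 813.2, 38.8 and 15.8), the inhibitory receptor gene Klrc1 (0.61) and Alpk2 (0.72). For Serpinf1 they were the leukotriene receptor gene Cysltr1 (0.16; 59.5, 1406, 47.8 and 57.9), the cytokine gene Il24 (0.28) and Gap43 (0.30). All 9 of these were highest in Th17, which the choice by likeness favours and which is not a separate result.

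With values again in the order Th0, Th17, exFoxp3Th17 and Treg, Timp2 lay closest to Tgif1, a repressor of TGF-beta responses (0.10; 36.4, 64.5, 157.3 and 46.1), the sulfite oxidase gene Suox (0.10) and Rtl8c (0.12). Serpinb6a lay closest to the lipid hydrolase gene Abhd4 (0.08; 173.7, 393.4, 1079 and 479.2), the inositol transporter gene Slc5a3 (0.18) and Tanc2 (0.19). Serpinb9 lay closest to Psmb10, a subunit of the immunoproteasome (0.08; 675.9, 329.5, 571.0 and 863.3), then Pts (0.10) and Itprid2 (0.13). Serpinb6b lay closest to Cc2d1b (0.05), Ankrd24 (0.06) and Ttc27 (0.07), all highest in Th0, which the choice again favours. A member that varies little has near neighbours more easily than one that spans a wide range, so these differences are not compared between members.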

How the data were processed

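Biotin-labelled total RNA (1 µg per population) was hybridised to Affymetrix arrays, per the labels' protocols. The deposited values are linear signal intensities, and the authors used MAS5 for them per the submitters' processing notes, which name no version. The authors' scaling was kept, since the mean intensity without the lowest and highest 2% was 100 on every array. Gene names came from the platform annotation (34945 probe sets with 1 symbol, 932 with several, 9160 unnamed here), with symbols updated through RefSeq. Signals below the floor were set to it before log2, which makes folds against them lower bounds ("at least"). Each gene was represented by its probe set with the highest mean log2 signal. A gene was called at 2-fold or more, and no test was possible with 1 array per population, whose number limits the precision. The code that makes the calls was checked on simulated data with known folds. Recovery was required only at folds well above the threshold, so the check does not gauge calls near 2-fold.

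Named genes were all members, the 3 most alike genes per member (signal at least 4 times the floor on some array, no clone names), up to 4 called genes per list and comparison, and Foxp3. The members, lists and rules were chosen with earlier results of these data known. Genes named outside the rule, after their values were seen, are Mmp10, Adam10, Adam17, Reck, Ctsg, Prtn3, Elane, Plg, Plau, Plat, Il17a, Xist, Eif2s3y, Kdm5d, Uty, Col1a2, Pecam1, Cdh5, Kdr, Serpinb6e, Serpinb9b, Serpinb1b, Timp3 and Timp4. Of the 8 members, 7 have a promoter in the RefSeq table (GRCm38.p6). Alternatives covered the floor, a pseudocount, scaling, the probe set rule and the threshold. Python 3.11.15, numpy 2.4.6 and pandas 2.3.3 were used.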

Additional observations from a re-analysis of the deposited data

Results flagged for a closer look

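Serpinb1a went in opposite directions between the IL-17 positive population and its partner of the same origin. Its log2 ratio was 6.81 for Th17 over Th0, a lower bound because Th0 was below the floor, and -1.34 for exFoxp3Th17 over Treg. Its second probe set gave 3.89, also a bound, and -1.22. With 1 array per population this difference was not tested, and the partner arrays differ in culture (Th0 conditions or IL-2) as well as in origin.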

How the results depend on the processing

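Of 28 member ratios (7 genes in 4 comparisons), each was recomputed under 7 alternatives. In all 196 recomputed ratios the call was kept in 190, lost in 5 and gained in 1, and 0 of the called ratios changed sign. Many of these calls could not change, so the count kept does not measure robustness. Averaging leaves genes with 1 probe set as they were, and moving the floor leaves ratios of signals well above it unchanged. A 3-fold threshold can only remove calls. The 5 losses all came with the 3-fold threshold. There, 0 members were higher in exFoxp3Th17 than in Th17, 0 were lower in exFoxp3Th17 than in Treg, and 1 was higher in Treg than in Th0; the threshold itself removes Serpinb6a (log2 1.45), Timp2 (1.51), Serpinb1a (-1.34) and Serpinb6a (1.57) there, and Serpinb6a in Th17 over Th0 (1.10). Of the 11769 genes above the floor, 304 were higher in exFoxp3Th17 than in Th17 at 3-fold, beside 880 at 2-fold. In exFoxp3Th17 against Treg 539 were lower, beside 1170, and in Treg against Th0 301 were higher, beside 654. For Timp2 in exFoxp3Th17 over Th17, 3 other probe sets exceed 3-fold. The gain was Serpinb6a in exFoxp3Th17 over Treg under quantile normalization (log2 1.05 in place of 0.97). Halving or doubling the floor, the floor as a pseudocount, equal medians and averaging all probe sets of a gene changed no member's call. The order of the 4 arrays was kept for all 7 members under both other scalings, with signals below the floor ranked too. The last places of Serpinf1 (exFoxp3Th17 and Th0) and Timp1 (Treg and Th0) rest on such signals and carry no meaning. No paired analysis was possible because each population has 1 array. Signals near the floor, as for Serpinf1 outside Th17 and Timp1 in Th0 and Treg, give only bounds.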
